A study of Mus musculus with 9 samples.

Results

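Histone genes were examined in RNA-seq gene counts of leukaemic mouse bone marrow cells sorted by surface CD43 and c-Kit. The genes were chosen by symbol, as the rows beginning with Hist1h, Hist2h, Hist3h, Hist4h, H2af, H3f3 or H1f that had at least 10 counts in at least 3 of the 9 libraries. This rule took 64 of 84 rows with such a symbol and of 24391 rows in all. Of the 64 genes, 54 carry the Hist symbols of the replication-dependent histone clusters and 10 are histone variant genes. All cells came from C57BL/6 mice aged 6 to 8 weeks with AML1-ETO9a leukaemia, a model driven by a truncated isoform of the AML1-ETO fusion oncoprotein. The 3 populations were CD43++ckit+, CD43+ckit- and CD43-ckit-, with 3 libraries each. All 3 carried the same leukaemia model, and no library of healthy marrow was analysed here. The labels do not say how the fusion gene was delivered, how many mice were used or whether cells were pooled. P-values therefore measure the spread between these libraries, which may be technical.

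Histones are the proteins around which nuclear DNA is wrapped. Replication-dependent histone genes lie in clusters, are transcribed mainly in S phase, and give messages that normally end in a conserved stem-loop and carry no poly(A) tail. Variant histones are made outside S phase as well, from polyadenylated messages, and are placed into chromatin by their own chaperones. Some replication-dependent genes are also known to give polyadenylated messages in differentiating cells.

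Libraries were prepared from total RNA by an Illumina TruSeq RNA kit, per the labels' protocols. The standard workflow of that kit selects polyadenylated RNA, but the labels do not state a selection step. The stem-loop and the polyadenylation signal of each annotated transcript are therefore shown before the counts. In GENCODE M21 transcripts, the stem-loop pattern GGNNCTNTTNAGNNCC, searched on the transcribed strand, was present in 36 of 54 replication-dependent genes (66.7%) and in 1 of 10 variants. It was present in 0.626% of all protein-coding genes. Of the 18 replication-dependent genes without a match, 12 had only transcripts with an annotated length of a whole number of codons. A transcript annotated to its coding end alone cannot show a stem-loop beyond it. Whether these transcripts stop there was not checked. A polyadenylation hexamer (AATAAA or ATTAAA) lay in the last 40 bases of an annotated transcript in 13 of 54 replication-dependent genes (24.1%). The same was true of 8 of 10 variants (80%) and of 76.1% of protein-coding genes.

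The stem-loops below, in capitals within 26 bases of transcript, are those of 6 members whose counts differed between populations, of Hist1h4i, the most counted H4 gene, and of Hist1h4b, an example of a transcript that ends close after it:
Hist1h1c: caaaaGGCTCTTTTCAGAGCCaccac
Hist3h2a: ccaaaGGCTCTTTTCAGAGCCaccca
Hist3h2ba: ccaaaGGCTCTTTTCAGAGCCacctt
Hist4h4: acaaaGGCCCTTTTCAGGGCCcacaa
Hist1h2bp: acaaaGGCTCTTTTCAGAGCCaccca
Hist1h4i: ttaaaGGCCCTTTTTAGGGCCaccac
Hist1h4b: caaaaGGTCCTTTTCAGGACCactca
H2afx: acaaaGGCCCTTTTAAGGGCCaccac

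The annotated Hist1h4b transcript ended 28 bases after its stem-loop and that of Hist1h2bp 38 bases after it. The Hist3h2ba transcript went on for 169 bases, that of Hist1h1c for 840, that of Hist3h2a for 1643 and that of Hist4h4 for 2445. Among the 36 replication-dependent genes with a stem-loop, 19 had more than 100 annotated bases after it. H2afx, whose gene is known to give both kinds of message, had 822. Hist1h2bc and Hist2h2be, both H2B genes, held no match. All 64 genes matched a RefSeq gene, and 57 had a promoter sequence (GRCm38.p6).

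Promoters of 3 members are shown because these genes had different patterns across the populations. Hist1h1c and Hist3h2a were highest in CD43-ckit-. Hist3h2ba, a neighbour of Hist3h2a on chromosome 11, was highest in CD43+ckit-. Each is given as the 250 bases before the RefSeq start (GRCm38.p6), and capitals mark the CCAAT box, the TATA box sequence TATAAA, the GATA factor core AGATAA and the octamer ATTTGCAT on either strand:
Hist1h1c promoter, chr13:23738557-23738806, plus strand: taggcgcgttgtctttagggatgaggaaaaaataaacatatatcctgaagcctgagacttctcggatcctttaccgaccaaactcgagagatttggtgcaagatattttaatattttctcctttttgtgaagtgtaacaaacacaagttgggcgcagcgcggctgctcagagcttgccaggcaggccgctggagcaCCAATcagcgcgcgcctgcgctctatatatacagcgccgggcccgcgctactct
Hist3h2a promoter, chr11:58954435-58954684, plus strand: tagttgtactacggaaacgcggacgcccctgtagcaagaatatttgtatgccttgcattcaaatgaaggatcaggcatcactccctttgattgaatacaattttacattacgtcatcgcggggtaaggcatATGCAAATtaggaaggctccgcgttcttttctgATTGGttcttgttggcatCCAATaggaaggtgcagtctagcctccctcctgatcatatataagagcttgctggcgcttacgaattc
Hist3h2ba promoter, chr11:58948661-58948910, plus strand: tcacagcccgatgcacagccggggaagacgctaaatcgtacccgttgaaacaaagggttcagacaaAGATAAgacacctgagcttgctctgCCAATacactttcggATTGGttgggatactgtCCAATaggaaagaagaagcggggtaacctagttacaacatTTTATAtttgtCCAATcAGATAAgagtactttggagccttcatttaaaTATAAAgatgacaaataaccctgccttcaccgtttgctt

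In 300-base windows, which also took in 50 bases after the start, the octamer was present in 6 of 12 H2A and 5 of 13 H2B promoters. None of the 5 H1, 8 H3 and 11 H4 promoters held it. It was present in 21.1% of the members with a promoter and in 1.75% of 27025 genes. CCAAT was present in 80.7% of members against 37.9% of all genes, TATAAA in 54.4% against 14.2%, and AGATAA in 22.8% against 11.4%. Among the members were 7 divergent H2A and H2B pairs with starts 164 to 249 bases apart, so the windows of a pair overlap and are not independent.

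Total counts ranged from 17966197 to 31781746 per library, and 12573 genes passed a filter on low counts. Of the 64 members, 63 passed it. Hist1h2bl did not: it had 11, 13 and 17 counts in the 3 libraries that took it over the limit, while Hist3h2bb-ps, just outside the rule, had 14 and 12 counts in 2. Levels are given as CPM, each count set against its library total and scaled by TMM, which centres most genes between libraries. They are not divided by gene length. Kit ranged from 146.0 to 175.5 CPM in CD43++ckit+ cells, from 7.80 to 21.03 CPM in CD43+ckit- cells and from 18.9 to 42.1 CPM in CD43-ckit- cells. Spn, which encodes CD43, ranged from 431.7 to 555.2 CPM, from 137.2 to 232.5 CPM and from 71.7 to 180.1 CPM in the same populations. Other cell markers are given as sums, which a few high genes can set, and for some lists their ranges overlapped between populations. Erythroid marker genes summed to 3329 to 3740 CPM in CD43++ckit+ cells, 17296 to 20635 CPM in CD43+ckit- cells and 34279 to 54259 CPM in CD43-ckit- cells, though Hbb-bt was at 0 in all 9 libraries and Hba-a1 in 6. Monocyte and macrophage markers summed to 23.6 to 199.2 CPM, 59.8 to 174.4 CPM and 1274 to 1429 CPM in that order, and B-lineage markers to 3.91 to 28.0 CPM, 16.8 to 50.8 CPM and 96.0 to 251.6 CPM. Neutrophil markers summed to 110.9 to 6967 CPM, 573.3 to 3627 CPM and 4650 to 17912 CPM, T and NK cell markers to 4.98 to 25.5 CPM, 29.7 to 34.8 CPM and 30.2 to 47.6 CPM, and mast cell and basophil markers to 1132 to 2180 CPM, 758.5 to 838.4 CPM and 1246 to 1554 CPM. Their part in the histone results was not tested. In bulk samples such as these, fewer cells of a type and less RNA per cell cannot be told apart.

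Scaling matters for comparisons with CD43-ckit-. With library totals in place of TMM, the median log2 fold change of all genes moved up by 0.91 for CD43++ckit+ versus CD43-ckit-, by 0.64 for CD43+ckit- versus CD43-ckit- and by 0.27 for CD43++ckit+ versus CD43+ckit-. Values whose sign turned with library totals are given beside the named members. The share of calls that were higher moved to 82.2%, 85.2% and 67.0% with library totals, against 58.9%, 59.7% and 49.4% with TMM. A log2 fold change is the level in the first-named population minus that in the second, with a standard error (SE) from edgeR's quasi-likelihood test. A gene counted as called where its p, adjusted by Benjamini-Hochberg over all tested genes, was under 0.05.

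CD43++ckit+ library 1 stood apart for the histone genes. Of the 54 replication-dependent genes, 50 had their highest CD43++ckit+ level there, and their summed level there was 1.85 times the mean of libraries 2 and 3. The DNA replication genes of the same library did not show this, at 5174 CPM in library 1 against 5303 and 5220 CPM in libraries 2 and 3. Counts that rest on it are given with and without it. CD43++ckit+ library 3 stood apart in other genes. Neutrophil markers summed to 6967 CPM there, against 411.0 and 110.9 CPM in libraries 1 and 2. Over all genes its counts differed from those of libraries 1 and 2 by a chi-square per degree of freedom of 125 and 120, where libraries 1 and 2 differed from each other by 16. The other populations also held a library with a different neutrophil level. CD43+ckit- library 1 had 573.3 CPM, against 3627 and 2886 CPM in libraries 2 and 3. Its chi-square values were 90.5 and 57.9, beside 33.9. CD43-ckit- library 1 had 4650 CPM, against 17187 and 17912 CPM, with chi-square values of 76.6 and 106, beside 17.4. In each population 1 library correlated least with the other 2 (CD43++ckit+ library 3, CD43+ckit- library 1 and CD43-ckit- library 1). A fit without these least correlated libraries was added after the data were seen. Calls that changed without CD43++ckit+ library 3, such as those of H1fx, Hist1h2ac and Hist1h2bh, are given with their values. Results of H2afy3 and H2afx that moved in the fit without the least correlated libraries are given too. That fit leaves out a library of each population, so such a move cannot be assigned to CD43++ckit+ library 3 alone. The part of the neutrophil markers in these results was not tested.

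Replication-dependent histone genes were few among the called genes. Between CD43++ckit+ and CD43+ckit-, 0 of 53 rose and 4 fell (7.55%), where 19.7% of all tested genes rose and 20.1% fell (39.8% called). The genes that fell were the H2B genes Hist1h2bc, Hist2h2be and Hist3h2ba and the H2A gene Hist3h2a. For CD43++ckit+ versus CD43-ckit-, 0 rose and 8 fell (15.1%), where 39.7% of all genes rose and 27.7% fell (67.4% called). In CD43+ckit- relative to CD43-ckit-, 4 rose and 5 fell (17.0%), where 31.0% of all genes rose and 20.9% fell (51.9% called). Precision differed: the median SE of the replication-dependent genes was 0.48, 0.49 and 0.49 in the 3 comparisons, and that of all genes was 0.23, 0.24 and 0.24. At an unadjusted p under 0.05, 0 of the replication-dependent genes were higher in CD43++ckit+ than CD43+ckit- cells and 1 was higher in CD43++ckit+ than CD43-ckit- cells, and DESeq2's Wald test called 0 higher in both. With library totals 13 were called higher in CD43++ckit+ than CD43-ckit- cells and 4 lower, and 14 were called higher in CD43+ckit- than CD43-ckit- cells and 3 lower.

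Libraries of the 2 populations did not overlap for 7 of 53 replication-dependent genes between CD43++ckit+ and CD43+ckit-, where 55.5% of all genes did not. They did not overlap for 9 between CD43++ckit+ and CD43-ckit- (73.2% of all genes) and for 16 between CD43+ckit- and CD43-ckit- (64.3%). Median log2 fold changes were -0.35, -0.01 and 0.32 in the 3 comparisons, beside 0.01, 0.19 and 0.13 over all genes. The fold changes ran from -1.99 to 0.64, from -3.25 to 0.90 and from -2.05 to 1.51. Without CD43++ckit+ library 1, 7 replication-dependent genes fell relative to CD43+ckit-, among them all 4 called with it and also Hist1h1c, Hist1h1e and Hist1h4i. Relative to CD43-ckit-, 11 then fell, including all 8 called with it, and in CD43+ckit- 4 rose and 7 fell relative to CD43-ckit-. Without CD43++ckit+ library 2, 1 rose and 5 fell in CD43++ckit+ relative to CD43-ckit-, and 1 rose without CD43++ckit+ library 3 or CD43-ckit- library 2. In CD43+ckit- relative to CD43-ckit-, 2 rose without CD43+ckit- library 1 or 2, and 3 fell without CD43+ckit- library 1 or CD43-ckit- library 2. With the replicate number as a block, fitted to CD43+ckit- and CD43-ckit- alone, 11 rose and 8 fell, including all 9 called without the block.

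**Figure D1:**
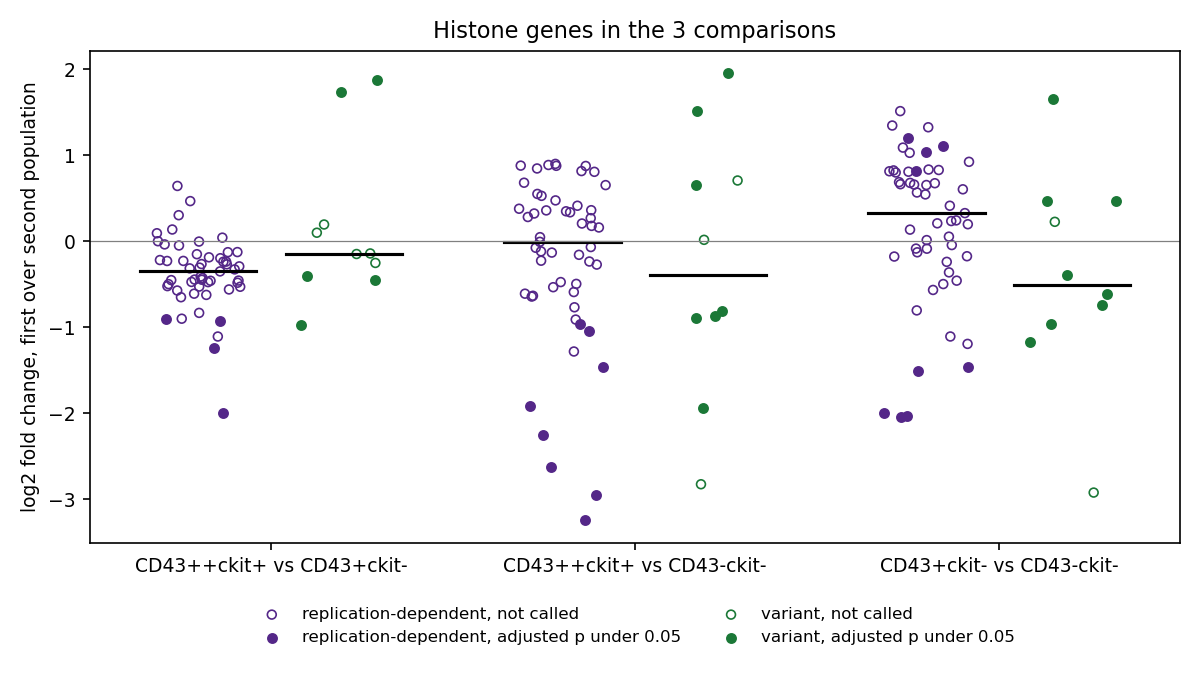
Log2 fold change (first-named population minus the second, vertical axis) of the 53 tested replication-dependent genes and the 10 variants in each comparison. Points are genes, filled where the adjusted p was under 0.05, and black lines are medians. Those of the replication-dependent genes are -0.35, -0.01 and 0.32, and the lowest point, at -3.25, is Hist3h2a in CD43++ckit+ versus CD43-ckit-.

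A small number of members held most of the counts. Hist1h1c, Hist1h2bc, Hist3h2a, Hist2h2be, Hist1h4i and Hist3h2ba together took 73.4% of all replication-dependent counts. Their share was 59.3%, 71.2% and 58.6% in the CD43++ckit+ libraries, 73.8%, 67.5% and 68.9% in those of CD43+ckit-, and 91.3%, 86.0% and 85.2% in those of CD43-ckit-. The remaining members had few counts, and the next most counted, Hist1h2bg, had 953 over all 9 libraries.

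The linker histone H1, which binds DNA between nucleosomes, was led by Hist1h1c. Hist1h1c had 50.6, 24.9 and 20.5 CPM in CD43++ckit+ cells, 30.5, 42.1 and 40.1 CPM in CD43+ckit- cells, and 165.0, 148.4 and 146.7 CPM in CD43-ckit- cells. The CD43-ckit- libraries were all above the other 6, while CD43++ckit+ and CD43+ckit- overlapped. In CD43++ckit+ it fell (log2 fold change -2.26, SE 0.31, adjusted p = 0.000251) and in CD43+ckit- (-2.03, SE 0.31, adjusted p = 0.000926) relative to CD43-ckit-. CD43++ckit+ differed from CD43+ckit- by -0.23 (adjusted p = 0.590), and it was called without CD43++ckit+ library 1 (-0.72, adjusted p = 0.0215), while with library totals it was at 0.0098 (adjusted p = 0.984). None of the other 4 replication-dependent H1 genes was called in any comparison. The summed level of the 5 H1 genes averaged 39.6 ± 21.3 CPM in CD43++ckit+ cells, 48.3 ± 8.46 CPM in CD43+ckit- cells and 160.6 ± 8.23 CPM in CD43-ckit- cells (SD, n = 3 each).

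Among the core H2A genes, which form dimers with H2B, Hist3h2a had the largest difference. Hist3h2a stood at 16.2, 9.33 and 9.96 CPM in CD43++ckit+ cells, at 22.2, 31.8 and 30.1 CPM in CD43+ckit- cells, and at 126.3, 104.6 and 106.0 CPM in CD43-ckit- cells. No library of one population overlapped another, and the order was the same with and without CD43++ckit+ library 1. Relative to CD43-ckit- it fell in CD43++ckit+ (-3.25, SE 0.25, adjusted p = 9.4e-06) and in CD43+ckit- (-2.002, SE 0.23, adjusted p = 0.000264), and it fell in CD43++ckit+ relative to CD43+ckit- (-1.25, SE 0.23, adjusted p = 0.00295). These calls held under every alternative run, library totals included. Of the 12 H2A genes tested, 3 fell in CD43++ckit+ relative to CD43-ckit-: Hist3h2a, Hist1h2ac and Hist1h2ab.

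Hist1h2ac had 2.82, 1.09 and 1.34 CPM in CD43++ckit+ cells, 1.04, 2.95 and 2.34 CPM in CD43+ckit- cells, and 4.56, 5.30 and 4.67 CPM in CD43-ckit- cells. It was highest in every CD43-ckit- library and fell in CD43++ckit+ relative to CD43-ckit- (-1.47, SE 0.46, adjusted p = 0.0196), a call lost with library totals (0.297) and without CD43++ckit+ library 2 (0.0662) or CD43-ckit- library 2 (0.0551). Against CD43-ckit-, CD43+ckit- was at -1.20 (adjusted p = 0.0547), which passed with the replicate block in a fit of these populations alone (1.87e-05) and not with the block over all 9 libraries (0.0764). It also passed without CD43++ckit+ library 1 or 3 or CD43+ckit- library 2 (0.0388 to 0.0457), without the block in a fit of these populations alone (0.032), with DESeq2 size factors (0.0373) or its Wald test (0.0152), with a stricter filter of 50 counts in 3 libraries (0.0396) and without the least correlated libraries (0.0261). Hist1h2ab had 1.38, 0.63 and 0.96 CPM in CD43++ckit+ cells, 1.41, 1.54 and 1.19 CPM in CD43+ckit- cells, and 1.89, 1.96 and 2.30 CPM in CD43-ckit- cells. It fell in CD43++ckit+ relative to CD43-ckit- (-1.04, SE 0.35, adjusted p = 0.0256), a call lost with library totals (0.722), without a filter on low counts (0.0661), with the replicate block in a fit of these populations alone (0.0688), and without CD43++ckit+ library 2 or CD43-ckit- library 2 or 3 (0.0551 to 0.092). In CD43+ckit- it stood against CD43-ckit- at -0.57 (adjusted p = 0.189), and at 0.062 (adjusted p = 0.886) with library totals.

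The remaining named H2A genes were highest elsewhere or were not called. Hist1h2ai had 2.59, 1.34 and 2.12 CPM in CD43++ckit+ cells, 2.25, 3.19 and 1.67 CPM in CD43+ckit- cells, and 0.86, 0.92 and 1.51 CPM in CD43-ckit- cells. It was lowest in CD43-ckit- and rose in CD43+ckit- relative to CD43-ckit- (1.11, SE 0.40, adjusted p = 0.0448). That call was lost without CD43++ckit+ library 1, CD43+ckit- library 1 or 2, or CD43-ckit- library 1 or 2 (0.0514 to 0.172), and in 5 other alternatives. Against CD43-ckit-, CD43++ckit+ was at 0.88 (adjusted p = 0.0784), which passed with library totals (1.76, adjusted p = 0.005) and without CD43++ckit+ library 2 (0.0462). Against CD43+ckit-, CD43++ckit+ was at -0.23 (adjusted p = 0.677), and at 0.041 with library totals (adjusted p = 0.950). Hist1h2ae had 4.33, 1.70 and 3.10 CPM in CD43++ckit+ cells, 3.13, 4.63 and 4.55 CPM in CD43+ckit- cells, and 4.40, 4.58 and 3.73 CPM in CD43-ckit- cells, with overlap in each pair and no call. Against CD43-ckit- it was at -0.48 in CD43++ckit+ and at -0.047 in CD43+ckit-, and with library totals these values turned to 0.44 and 0.61 (adjusted p = 0.303 and 0.172). Only 9.88% of the 50-base words in the annotated Hist1h2ai transcript were unique to it, so many of its reads may not be told from those of its near-identical copies.

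H2B, the partner of H2A in the nucleosome, gave both patterns. Hist1h2bc had 18.7, 13.3 and 10.7 CPM in CD43++ckit+ cells, 26.8, 26.8 and 26.4 CPM in CD43+ckit- cells, and 131.3, 102.8 and 97.7 CPM in CD43-ckit- cells. The 3 populations did not overlap. It fell in CD43++ckit+ relative to CD43-ckit- (-2.96, SE 0.22, adjusted p = 7.84e-06), in CD43+ckit- relative to CD43-ckit- (-2.05, SE 0.21, adjusted p = 0.000139) and in CD43++ckit+ relative to CD43+ckit- (-0.91, SE 0.21, adjusted p = 0.00738). These calls too held under every alternative run.

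Hist2h2be had 20.1, 17.5 and 15.05 CPM in CD43++ckit+ cells, 39.0, 28.1 and 33.4 CPM in CD43+ckit- cells, and 20.7, 17.7 and 18.8 CPM in CD43-ckit- cells. All CD43+ckit- libraries stood above the other 6. It fell in CD43++ckit+ relative to CD43+ckit- (-0.93, SE 0.17, adjusted p = 0.00257) and rose in CD43+ckit- relative to CD43-ckit- (0.81, SE 0.17, adjusted p = 0.00397). CD43++ckit+ stood against CD43-ckit- at -0.12 (adjusted p = 0.529), which became 0.79 (adjusted p = 0.00147) with library totals. All 50-base words of its transcript were unique to it.

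Hist3h2ba had 4.71, 2.82 and 3.08 CPM in CD43++ckit+ cells, 13.7, 15.2 and 13.4 CPM in CD43+ckit- cells, and 8.48, 4.65 and 7.54 CPM in CD43-ckit- cells. It was highest in the CD43+ckit- libraries, and one CD43++ckit+ library was above one CD43-ckit- library. In CD43++ckit+ it fell relative to CD43+ckit- (-1.99, SE 0.29, adjusted p = 0.00093) and to CD43-ckit- (-0.96, SE 0.28, adjusted p = 0.0137), and in CD43+ckit- it rose relative to CD43-ckit- (1.03, SE 0.28, adjusted p = 0.0136). The call between CD43++ckit+ and CD43-ckit- was lost under library totals (-0.04, adjusted p = 0.905) and without CD43++ckit+ library 2 (0.0574). Its neighbour Hist3h2a, shown above with its own promoter, had its highest level in CD43-ckit- instead.

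Hist1h2bg had 9.83, 2.22 and 2.26 CPM in CD43++ckit+ cells, 3.13, 2.48 and 3.56 CPM in CD43+ckit- cells, and 2.99, 2.88 and 1.94 CPM in CD43-ckit- cells. Its highest value was CD43++ckit+ library 1, and no comparison was called with TMM. With library totals CD43++ckit+ was above CD43-ckit- (adjusted p = 0.0175). A pair of less counted H2B genes was also called, and they are named after their values were seen. Hist1h2bp had 0.26, 0.14 and 0.18 CPM in CD43++ckit+ cells, 0.40, 0.27 and 0.58 CPM in CD43+ckit- cells, and 1.02, 1.70 and 0.86 CPM in CD43-ckit- cells. It fell relative to CD43-ckit- in CD43++ckit+ (-2.62, SE 0.49, adjusted p = 0.00121) and in CD43+ckit- (-1.51, SE 0.46, adjusted p = 0.0231), the second lost with library totals (0.142) and without CD43+ckit- library 1 or 2 or CD43-ckit- library 2 (0.064 to 0.106). Hist1h2bh had 0.69, 0.85 and 0.54 CPM in CD43++ckit+ cells, 0.94, 0.94 and 0.77 CPM in CD43+ckit- cells, and 0.39, 0.33 and 0.43 CPM in CD43-ckit- cells. It was lowest in CD43-ckit- and rose in CD43+ckit- relative to CD43-ckit- (1.20, SE 0.37, adjusted p = 0.0246), which was lost without CD43+ckit- library 1 or 2 or CD43-ckit- library 2 (0.0629 to 0.0837), with DESeq2's Wald test (0.122) and with the replicate block over all 9 libraries (0.0566), and was 1.83 with library totals. In CD43++ckit+ it stood 0.84 above CD43-ckit- (adjusted p = 0.0689), which passed with library totals (1.74, adjusted p = 0.00188) and without CD43++ckit+ library 3 (0.0337).

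**Figure D2:**
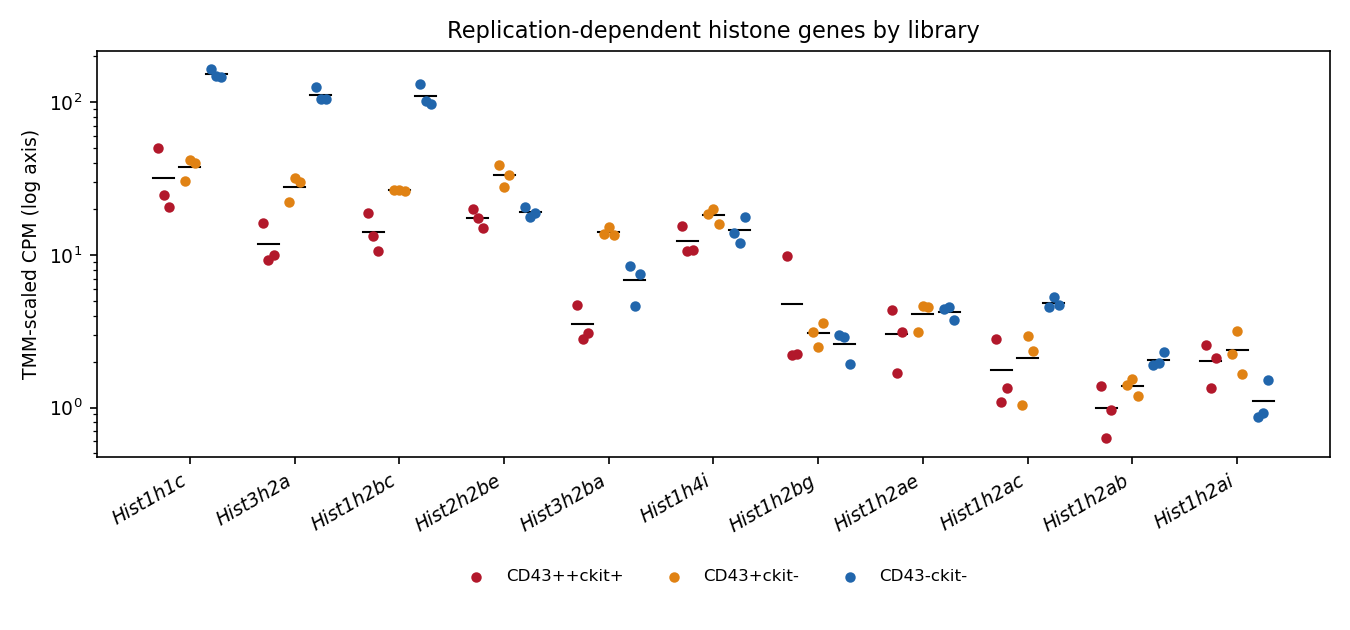
TMM-scaled CPM on a log axis for 11 replication-dependent genes, with points for the 3 libraries of each population and lines for their means. Hist1h1c, Hist3h2a and Hist1h2bc stand highest in CD43-ckit-, while Hist2h2be and Hist3h2ba stand highest in CD43+ckit-.

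H3 and H4 form the tetramer at the centre of the nucleosome, and few of their replication-dependent genes were called with TMM. Of 10 H3 genes, 0 were called in any comparison by edgeR's quasi-likelihood test with TMM over all 9 libraries, where 0 also had an unadjusted p under 0.05. With library totals Hist1h3a and Hist1h3c were called higher in both comparisons with CD43-ckit-, and DESeq2's Wald test called Hist1h3i lower in CD43++ckit+ than CD43-ckit- cells, as did DESeq2 size factors and the fit without CD43++ckit+ library 1. Without CD43-ckit- library 2, Hist1h3g was called higher in both comparisons with CD43-ckit-. With TMM the H3 sum averaged 8.66 ± 4.53 CPM in CD43++ckit+ cells, 10.9 ± 2.81 CPM in CD43+ckit- cells and 8.96 ± 2.45 CPM in CD43-ckit- cells (SD, n = 3 each). Of 12 H4 genes, Hist4h4 alone was called in the same fit. Hist1h4j was called higher in CD43+ckit- than CD43-ckit- cells without any 1 CD43++ckit+ library and in a fit of these populations alone, and with library totals Hist1h4d, Hist1h4i, Hist1h4j and Hist1h4k were called higher in both comparisons with CD43-ckit-. The H4 sum averaged 21.6 ± 6.91 CPM in CD43++ckit+ cells, 30.3 ± 2.21 CPM in CD43+ckit- cells and 24.6 ± 6.07 CPM in CD43-ckit- cells. With library totals CD43-ckit- was the lowest of the 3 for both families. The H3 sum then averaged 11.3, 12 and 6.42 CPM in CD43++ckit+, CD43+ckit- and CD43-ckit- cells, and the H4 sum 28.3, 33.2 and 17.5 CPM. Hist1h4i, the most counted H4 gene, had 15.5, 10.6 and 10.7 CPM in CD43++ckit+ cells, 18.6, 19.9 and 15.99 CPM in CD43+ckit- cells, and 13.9, 11.9 and 17.7 CPM in CD43-ckit- cells. CD43++ckit+ lay below CD43+ckit- in every library (-0.56, SE 0.21, adjusted p = 0.0619), which passed without CD43++ckit+ library 1 (0.0343), with the stricter filter (0.0408), and with DESeq2 size factors (0.0429) or its Wald test (0.0195). Against CD43-ckit-, CD43++ckit+ was at -0.24 (adjusted p = 0.331), and at 0.66 (adjusted p = 0.0306) with library totals. CD43+ckit- was at 0.32 (adjusted p = 0.215) against CD43-ckit-, and at 0.96 (adjusted p = 0.00645) with library totals. Hist4h4, named after its values were seen, had 0.38, 0.16 and 0.27 CPM in CD43++ckit+ cells, 0.30, 0.50 and 0.32 CPM in CD43+ckit- cells, and 0.79, 0.92 and 1.44 CPM in CD43-ckit- cells. It fell relative to CD43-ckit- in CD43++ckit+ (-1.92, SE 0.47, adjusted p = 0.00547) and in CD43+ckit- (-1.47, SE 0.47, adjusted p = 0.0264). With library totals neither call was kept (0.0839 and 0.157), and the second was lost without a filter on low counts (0.0527), with the replicate block over all 9 libraries (0.0534) and without CD43+ckit- library 1 or 3 or CD43-ckit- library 2 or 3 (0.0536 to 0.101).

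The sums showed which members carried the differences. All 54 replication-dependent genes summed to 212.2, 110.2 and 119.4 CPM in CD43++ckit+ cells, 204.3, 242.7 and 231.3 CPM in CD43+ckit- cells, and 510.1, 453.5 and 462.6 CPM in CD43-ckit- cells. The CD43-ckit- sums were above the other 6, also with library totals, where the means were 192.2, 247.7 and 330.8 CPM. The 13 genes with an annotated polyadenylation hexamer averaged 84.3 ± 28.7 CPM in CD43++ckit+ cells, 141.0 ± 8.53 CPM in CD43+ckit- cells and 317.1 ± 24.2 CPM in CD43-ckit- cells (SD, n = 3 each). All 41 genes without a hexamer averaged 63.0 ± 28.2 CPM, 85.1 ± 11.3 CPM and 158.3 ± 6.29 CPM in that order, also highest in CD43-ckit-. The 40 genes with neither a hexamer nor the symbol Hist1h2bc, a set trimmed after the values were seen, averaged 48.8 ± 24.8 CPM, 58.4 ± 11.4 CPM and 47.8 ± 11.9 CPM. With library totals these 40 averaged 63.7 ± 30.3 CPM, 64.1 ± 13.7 CPM and 34.2 ± 12.5 CPM in that order, lowest in CD43-ckit-. Of the mean CD43-ckit- sum, Hist1h1c held 153.35 CPM and Hist3h2a 112.3 CPM, both with an annotated hexamer. Hist1h2bc, without one, held 110.6 CPM. Since Hist1h2bc was left out for its values, the sum of the 40 cannot show whether hexamer genes differ as a group. Fold changes were negative for 12 of the 13 hexamer genes in CD43++ckit+ versus CD43-ckit-, and for 7 in CD43+ckit- versus CD43-ckit-. Among the 40 tested genes without a hexamer, 15 and 12 were negative. A hexamer was annotated in 6 of the 11 members called in any comparison and in 7 of the 42 tested members with no call. Hexamer genes included Hist1h1c, Hist3h2a, Hist2h2be, Hist1h4i and Hist3h2ba, which were among the most counted members. The part of count depth in these calls was not tested.

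The median log2 fold changes of the hexamer genes were -0.46, -0.50 and -0.05 for CD43++ckit+ versus CD43+ckit-, CD43++ckit+ versus CD43-ckit- and CD43+ckit- versus CD43-ckit-. Those of the 40 tested genes without one were -0.28, 0.27 and 0.58, beside 0.01, 0.19 and 0.13 over all genes. A hexamer is a match in an annotation, and the files do not show which RNA ends were sequenced. Counts of close copies were also uncertain, since 23 of 54 replication-dependent genes had under 50% unique 50-base words. The share was 68.5% for Hist3h2a, 69.9% for Hist1h2bc, 91.5% for Hist1h1c, 77.9% for Hist3h2ba and 71.1% for Hist1h4i.

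DNA replication genes were lowest in CD43-ckit-, where the replication-dependent sum was highest. The 35 listed genes summed to 5174 to 5303 CPM in CD43++ckit+ cells, 4773 to 5882 CPM in CD43+ckit- cells and 1615 to 2550 CPM in CD43-ckit- cells. Of them 34 rose and 1 fell in CD43++ckit+ relative to CD43-ckit-, 34 rose and 0 fell in CD43+ckit- relative to CD43-ckit-, and 0 rose and 3 fell in CD43++ckit+ relative to CD43+ckit-. Over all genes 39.7% rose and 27.7% fell, 31.0% rose and 20.9% fell, and 19.7% rose and 20.1% fell in the same comparisons. The medians were 1.42, 1.35 and 0.04, beside 0.19, 0.13 and 0.01 over all genes. In CD43++ckit+ relative to CD43+ckit-, 1 rose without CD43++ckit+ library 3 or CD43+ckit- library 1, and 2 rose and 5 fell without CD43-ckit- library 1. Mcm6, a subunit of the replicative helicase, averaged 391.7 ± 46.3 CPM in CD43++ckit+ cells, 308.1 ± 67.3 CPM in CD43+ckit- cells and 121.1 ± 27.5 CPM in CD43-ckit- cells (SD, n = 3 each), and CD43++ckit+ rose relative to CD43-ckit- (1.69, adjusted p = 0.000164). Mcm10 (1.23), a replication initiation factor, and Prim2 (1.33), a primase subunit, rose as well in CD43++ckit+ relative to CD43-ckit-. So did Rrm1 (1.05), a subunit of ribonucleotide reductase.

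**Figure D3:**
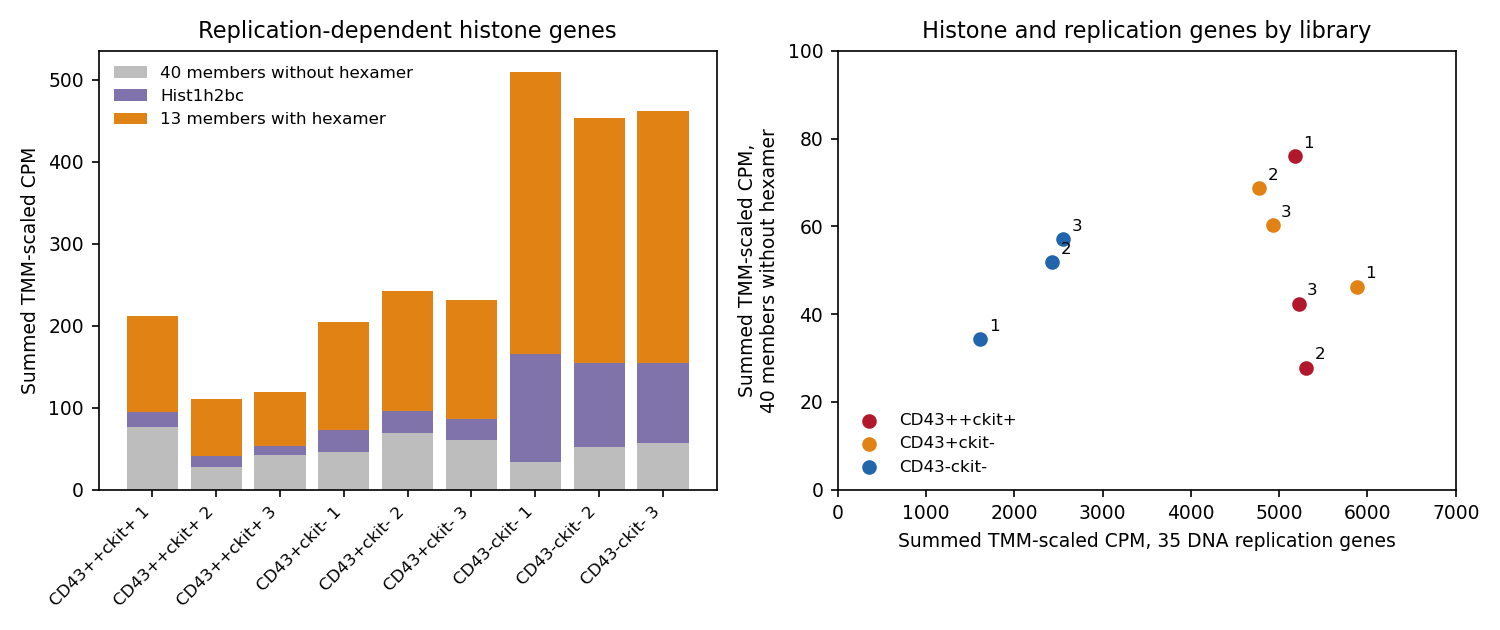
Left, summed TMM-scaled CPM of the replication-dependent genes in each library, split into the 13 with an annotated polyadenylation hexamer, Hist1h2bc and the other 40. Right, the sum of those 40 (vertical axis) against the sum of 35 DNA replication genes (horizontal axis), with library numbers beside the points; the CD43-ckit- libraries lie at 1615 to 2550 CPM of replication genes and the others at 4773 to 5882 CPM.

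Variants were called at shares near those of all genes in both comparisons with CD43++ckit+. Between CD43++ckit+ and CD43+ckit-, 2 of 10 rose and 3 fell (50%, beside 39.8% of all genes). Between CD43++ckit+ and CD43-ckit-, 3 rose and 4 fell (70.0%, beside 67.4%), and between CD43+ckit- and CD43-ckit-, 3 rose and 5 fell (80.0%, beside 51.9%). With library totals 3, 6 and 4 of the 10 were called, beside 41.7%, 74.7% and 64.1% of all genes. In CD43++ckit+ relative to CD43+ckit-, 1 rose without CD43++ckit+ library 1 or 2, any 1 CD43+ckit- library or CD43-ckit- library 3, and 1 fell without library 1 or 2 in either CD43++ckit+ or CD43+ckit-. In CD43+ckit- relative to CD43-ckit-, 1 rose without CD43+ckit- library 2, 2 fell without CD43+ckit- library 3 and 3 fell without CD43-ckit- library 2. The variants summed to 2863, 2496 and 2408 CPM in CD43++ckit+ cells, 3263, 2949 and 2953 CPM in CD43+ckit- cells, and 5005, 4238 and 4170 CPM in CD43-ckit- cells. With library totals that order turned, with means of 3399, 3338 and 3098 CPM.

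H3f3a and H3f3b both encode the variant H3.3, which replaces H3 in transcribed chromatin. H3f3a had 474.9, 450.9 and 455.8 CPM in CD43++ckit+ cells, 969.98, 847.9 and 899.8 CPM in CD43+ckit- cells, and 2123, 1618 and 1555 CPM in CD43-ckit- cells. The populations did not overlap and stood in that order. It fell in CD43++ckit+ relative to CD43+ckit- (-0.98, SE 0.15, adjusted p = 0.00119) and to CD43-ckit- (-1.94, SE 0.15, adjusted p = 1.11e-05), and in CD43+ckit- relative to CD43-ckit- (-0.96, SE 0.15, adjusted p = 0.00092). With library totals the calls were kept at -0.71, -1.003 and -0.30. H3f3a shares sequence with many annotated loci, though 87.7% of its 50-base words were unique.

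H3f3b had 1016, 718.6 and 574.2 CPM in CD43++ckit+ cells, 1052, 716.9 and 794.9 CPM in CD43+ckit- cells, and 1784, 1246 and 1264 CPM in CD43-ckit- cells. The CD43-ckit- libraries were above the other 6, and CD43++ckit+ and CD43+ckit- overlapped. It fell relative to CD43-ckit- in CD43++ckit+ (-0.89, SE 0.25, adjusted p = 0.0109) and in CD43+ckit- (-0.74, SE 0.25, adjusted p = 0.0329). With library totals the difference between CD43++ckit+ and CD43-ckit- turned to 0.031 (adjusted p = 0.888). The call for CD43+ckit- against CD43-ckit- was lost with library totals (0.729), without a filter on low counts (0.0544) and without CD43+ckit- library 2 or 3 or CD43-ckit- library 1 (0.0655 to 0.105). Between CD43++ckit+ and CD43+ckit- the difference was -0.15 (adjusted p = 0.675), and 0.11 with library totals (adjusted p = 0.693).

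H2afz and H2afv encode closely related forms of H2A.Z, a variant found near promoters. H2afz had 577.3, 564.0 and 558.5 CPM in CD43++ckit+ cells, 490.3, 498.0 and 499.2 CPM in CD43+ckit- cells, and 293.6, 383.4 and 402.8 CPM in CD43-ckit- cells. No populations overlapped, and CD43-ckit- was lowest. It rose relative to CD43-ckit- in CD43++ckit+ (0.65, SE 0.14, adjusted p = 0.00231) and in CD43+ckit- (0.46, SE 0.14, adjusted p = 0.0194). The second was lost in a fit of these populations alone, with the replicate block (0.0547) or without it (0.0803), but not with the block over all 9 libraries (0.0293). It was also lost without CD43+ckit- library 2 (0.0941), with DESeq2 size factors (0.143) and with its Wald test (0.102). CD43++ckit+ differed from CD43+ckit- by 0.19 (adjusted p = 0.297).

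H2afv had 59.2, 60.6 and 76.9 CPM in CD43++ckit+ cells, 87.6, 100.5 and 81.2 CPM in CD43+ckit- cells, and 55.0, 69.0 and 70.8 CPM in CD43-ckit- cells. Its CD43+ckit- libraries were above the other 6. It fell in CD43++ckit+ relative to CD43+ckit- (-0.45, SE 0.16, adjusted p = 0.0441) and rose in CD43+ckit- relative to CD43-ckit- (0.47, SE 0.16, adjusted p = 0.0325). The first call was lost in 7 of the 9 fits that left out 1 library (0.0512 to 0.244), and was kept without CD43++ckit+ library 3 or CD43-ckit- library 1. It was also lost with library totals (-0.17, adjusted p = 0.560), without a filter on low counts (0.0682) and in a fit of these populations alone, without the replicate block (0.0573) or with it (0.113). The second was lost without library 1 or 2 in either CD43+ckit- or CD43-ckit- (0.053 to 0.193), with DESeq2 size factors (0.196) or its Wald test (0.202), with the stricter filter (0.0827) and in a fit of these populations alone (0.0684). CD43++ckit+ and CD43-ckit- overlapped (0.01, adjusted p = 0.939), and with library totals CD43++ckit+ was higher (0.92, adjusted p = 0.00412).

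H2afx encodes H2A.X, the variant phosphorylated at DNA breaks, and H2afj encodes H2A.J, a variant linked to senescence in human fibroblasts. H2afx had 223.7, 223.3 and 281.1 CPM in CD43++ckit+ cells, 231.6, 356.2 and 280.9 CPM in CD43+ckit- cells, and 406.9, 491.7 and 432.1 CPM in CD43-ckit- cells. The CD43-ckit- libraries were above the other 6. It fell relative to CD43-ckit- in CD43++ckit+ (-0.87, SE 0.18, adjusted p = 0.00221) and in CD43+ckit- (-0.62, SE 0.18, adjusted p = 0.0185), but with library totals these values turned to 0.042 and 0.024 (adjusted p = 0.867 and 0.926). The second call was lost without CD43+ckit- library 1 or 3 or CD43-ckit- library 2 (0.0659 to 0.0693). CD43++ckit+ stood against CD43+ckit- at -0.25 (adjusted p = 0.294), and at 0.018 with library totals (adjusted p = 0.959). Without the least correlated libraries, CD43++ckit+ library 3 and CD43+ckit- library 1 among them, it fell (-0.52, adjusted p = 0.00138).

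H2afj had 138.7, 138.5 and 128.6 CPM in CD43++ckit+ cells, 196.0, 192.0 and 151.8 CPM in CD43+ckit- cells, and 243.1, 234.6 and 233.5 CPM in CD43-ckit- cells. The populations did not overlap. It fell in CD43++ckit+ relative to CD43+ckit- (-0.41, SE 0.12, adjusted p = 0.0263) and to CD43-ckit- (-0.81, SE 0.12, adjusted p = 0.000426), and in CD43+ckit- relative to CD43-ckit- (-0.40, SE 0.12, adjusted p = 0.0246). With library totals the values against CD43-ckit- turned to 0.10 and 0.24 (adjusted p = 0.448 and 0.101). The call between CD43++ckit+ and CD43+ckit- was lost without any 1 CD43++ckit+ library and without CD43+ckit- library 1 or 2 (0.0658 to 0.105). It was also lost with library totals (-0.14, adjusted p = 0.377), without a filter on low counts (0.0515) and with the replicate block in a fit of these populations alone (0.0692). That between CD43+ckit- and CD43-ckit- was lost without CD43+ckit- library 3 or CD43-ckit- library 2 (0.0592 to 0.102) and without a filter on low counts (0.117).

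H2afy encodes macroH2A1, a large variant of silent chromatin, and stood highest in CD43++ckit+. H2afy had 170.8, 184.7 and 163.1 CPM in CD43++ckit+ cells, 32.2, 53.9 and 55.1 CPM in CD43+ckit- cells, and 63.1, 124.8 and 130.3 CPM in CD43-ckit- cells. CD43+ckit- was lowest, with no overlap between any 2 populations. It rose in CD43++ckit+ relative to CD43+ckit- (1.88, SE 0.29, adjusted p = 0.00138) and fell in CD43+ckit- relative to CD43-ckit- (-1.17, SE 0.29, adjusted p = 0.00894), the second lost with library totals (-0.57, adjusted p = 0.184). In CD43++ckit+ it stood 0.70 above CD43-ckit- (SE 0.29, adjusted p = 0.0527), which passed with library totals (0.0031), without a filter on low counts (0.0308), with the replicate block over all 9 libraries (0.00988), without CD43+ckit- library 1 (0.0286), without CD43-ckit- library 3 (0.0431) and without the least correlated libraries (0.000403).

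H2afy3 is annotated as a processed pseudogene in GENCODE M21. H2afy3 had 2.23, 3.09 and 0.65 CPM in CD43++ckit+ cells, 0.57, 0.67 and 0.54 CPM in CD43+ckit- cells, and 0.79, 0.33 and 0.43 CPM in CD43-ckit- cells. CD43++ckit+ library 3 overlapped the other populations. It rose in CD43++ckit+ relative to CD43+ckit- (1.73, SE 0.56, adjusted p = 0.0365) and to CD43-ckit- (1.95, SE 0.60, adjusted p = 0.017). The first call was lost without CD43++ckit+ library 1 or 2, any 1 CD43+ckit- library or CD43-ckit- library 3 (0.0539 to 0.134), and the second without CD43++ckit+ library 2 or CD43-ckit- library 2 or 3 (0.0572 to 0.0647). Without the least correlated libraries, CD43++ckit+ library 3 among them, the values were 2.12 and 2.81 (adjusted p = 9.47e-06 and 3.92e-06). With the replicate block neither was kept in fits of 2 populations alone (0.0975 and 0.0695), and over all 9 libraries the second was (0.0532 and 0.023).

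Of the variant linker histones, H1f0 ran opposite to Hist1h1c. H1f0, which encodes H1.0, a linker histone of resting and differentiated cells, had 199.8, 152.4 and 168.3 CPM in CD43++ckit+ cells, 203.3, 182.4 and 189.7 CPM in CD43+ckit- cells, and 35.6, 68.5 and 79.0 CPM in CD43-ckit- cells. The CD43-ckit- libraries were all below the other 6. It rose relative to CD43-ckit- in CD43++ckit+ (1.51, SE 0.26, adjusted p = 0.000813) and in CD43+ckit- (1.65, SE 0.26, adjusted p = 0.00106), calls that held under every alternative run. CD43++ckit+ differed from CD43+ckit- by -0.14 (adjusted p = 0.696), and by 0.12 with library totals (adjusted p = 0.792).

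H1fx, which encodes H1.10, was near the limit of detection. H1fx had 0, 0 and 23 counts in CD43++ckit+, 3, 10 and 2 counts in CD43+ckit-, and 10, 25 and 20 counts in CD43-ckit-. Relative to CD43-ckit- it was at -2.83 in CD43++ckit+ (SE 1.21, adjusted p = 0.0623) and at -2.92 in CD43+ckit- (SE 1.25, adjusted p = 0.0746). These passed without CD43++ckit+ library 3, where both remaining CD43++ckit+ libraries were at 0 (0.000532 and 0.00497), and the second also without CD43++ckit+ library 2 (0.0419). With the replicate block over all 9 libraries the first passed (0.0436) and the second did not (0.0761), while in fits of 2 populations alone with the block the second passed (6.99e-08) and the first did not (0.055). The difference between CD43++ckit+ and CD43+ckit- was 0.10 (adjusted p = 0.965) and turned to -5.15 without CD43++ckit+ library 3 (adjusted p = 0.0226), a fitted value against libraries at 0 that sets no size.

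**Figure D4:**
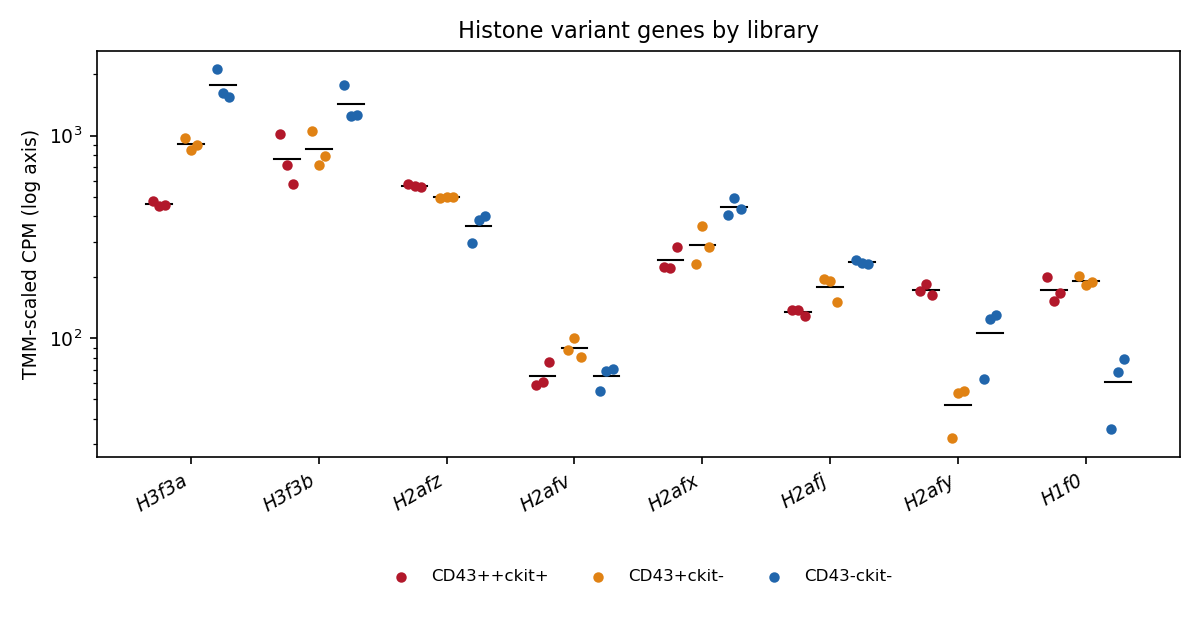
TMM-scaled CPM on a log axis for the 8 more counted variant genes, with points for the 3 libraries of each population and lines for their means. H3f3a steps up from CD43++ckit+ over CD43+ckit- to CD43-ckit-, H2afz and H1f0 are lowest in CD43-ckit-, and H2afy is highest in CD43++ckit+.

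Genes that make, process or degrade histone messages were examined beside the histones as a single list, with Upf1, Eri1 and Lsm1 among those of decay. Of 26 such genes tested, 8 rose and 3 fell in CD43++ckit+ relative to CD43+ckit-, 14 rose and 4 fell in CD43++ckit+ relative to CD43-ckit-, and 15 rose and 2 fell in CD43+ckit- relative to CD43-ckit-. Over all genes 19.7% rose and 20.1% fell, 39.7% rose and 27.7% fell, and 31.0% rose and 20.9% fell in the same comparisons. The median log2 fold changes of the list were 0.27, 0.74 and 0.47, beside 0.01, 0.19 and 0.13 over all genes. Without CD43++ckit+ library 1, 4 rose relative to CD43+ckit-, and without CD43++ckit+ library 2, 5 did. Without CD43-ckit- library 1, 6 fell in CD43++ckit+ relative to CD43+ckit-. Zfp473 encodes the zinc finger protein that binds the stem-loop complex in processing. Zfp473 had 1.95, 1.89 and 2.03 CPM in CD43++ckit+ cells, 2.59, 2.65 and 3.53 CPM in CD43+ckit- cells, and 26.6, 21.9 and 16.7 CPM in CD43-ckit- cells. Its CD43-ckit- level was above all others, and it fell in CD43++ckit+ (-3.47, SE 0.24, adjusted p = 5.62e-06) and in CD43+ckit- (-2.89, SE 0.24, adjusted p = 4.87e-05) relative to CD43-ckit-. Between CD43++ckit+ and CD43+ckit- it was at -0.58 (adjusted p = 0.0686), which passed without CD43-ckit- library 1 (adjusted p = 0.0482), without the least correlated libraries (0.0118), and with DESeq2 size factors (0.0497) or its Wald test (0.0391).

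Other named genes of that list went the opposite way. Ncbp2, a subunit of the cap-binding complex, averaged 47.7 ± 10.3 CPM in CD43++ckit+ cells, 24.9 ± 2.29 CPM in CD43+ckit- cells and 12.9 ± 2.65 CPM in CD43-ckit- cells (SD, n = 3 each). Ncbp2 rose in CD43++ckit+ relative to CD43-ckit- (1.89, adjusted p = 8.52e-05), as did Coil (1.75, adjusted p = 8.02e-05), the marker protein of Cajal bodies, and Cstf2 (1.53, adjusted p = 8.4e-05), a cleavage factor shared with polyadenylation. Slbp, which encodes the stem-loop binding protein and is named after its values were seen, averaged 105.1 ± 5.66 CPM in CD43++ckit+ cells, 113.5 ± 32.9 CPM in CD43+ckit- cells and 68.6 ± 2.98 CPM in CD43-ckit- cells. Slbp rose relative to CD43-ckit- in CD43++ckit+ (0.62, adjusted p = 0.016) and in CD43+ckit- (0.73, adjusted p = 0.0108), the first lost with DESeq2 size factors (0.0854) and its Wald test (0.0737). CD43++ckit+ was at -0.11 against CD43+ckit-, and at 0.16 with library totals (adjusted p = 0.679 and 0.525).

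Histone chaperones carry histones to chromatin, with separate carriers for replication-dependent H3 and for H3.3. Of 32 genes tested, 9 rose and 6 fell in CD43++ckit+ relative to CD43+ckit-, 20 rose and 7 fell in CD43++ckit+ relative to CD43-ckit-, and 15 rose and 5 fell in CD43+ckit- relative to CD43-ckit-, with medians of 0.02, 0.84 and 0.48. The shares over all genes were those given above, 19.7% and 20.1%, 39.7% and 27.7%, and 31.0% and 20.9%, with medians of 0.01, 0.19 and 0.13. Without CD43++ckit+ library 1 or CD43+ckit- library 2, 3 fell in CD43++ckit+ relative to CD43+ckit-, and without CD43+ckit- library 3, 1 fell in CD43+ckit- relative to CD43-ckit-. Cabin1, a subunit of the HIRA complex that deposits H3.3, had 108.8, 112.1 and 122.9 CPM in CD43++ckit+ cells, 331.5, 328.1 and 281.9 CPM in CD43+ckit- cells, and 717.3, 449.4 and 404.1 CPM in CD43-ckit- cells. The populations did not overlap, with CD43++ckit+ lowest and CD43-ckit- highest. Cabin1, and Ubn1 and Daxx below, were named for their adjusted p in CD43++ckit+ versus CD43-ckit-. They do not stand for the other carriers of the list. Cabin1 fell in CD43++ckit+ relative to CD43+ckit- (-1.45, SE 0.21, adjusted p = 0.000974) and to CD43-ckit- (-2.19, SE 0.22, adjusted p = 4.16e-05), and in CD43+ckit- relative to CD43-ckit- (-0.74, SE 0.21, adjusted p = 0.0159). The last was lost under library totals (-0.053, adjusted p = 0.748) and without CD43+ckit- library 3 (0.0673).

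Ubn1, another HIRA complex subunit, averaged 137.5 ± 8.69 CPM in CD43++ckit+ cells, 216.6 ± 1.48 CPM in CD43+ckit- cells and 424.7 ± 112.7 CPM in CD43-ckit- cells (SD, n = 3 each). Ubn1 fell in CD43++ckit+ relative to CD43+ckit- (-0.66, adjusted p = 0.0157) and to CD43-ckit- (-1.63, adjusted p = 7.46e-05), and in CD43+ckit- relative to CD43-ckit- (-0.97, adjusted p = 0.00204), the first lost without CD43++ckit+ library 1 (0.0572). Daxx, an H3.3 chaperone of heterochromatin, averaged 63.4 ± 8.10 CPM in CD43++ckit+ cells, 131.3 ± 7.21 CPM in CD43+ckit- cells and 196.6 ± 46.4 CPM in CD43-ckit- cells. Daxx fell in CD43++ckit+ relative to CD43+ckit- (-1.05, adjusted p = 0.00184) and to CD43-ckit- (-1.63, adjusted p = 7.18e-05). Its fall in CD43+ckit- relative to CD43-ckit- (-0.58, adjusted p = 0.0206) was lost without CD43+ckit- library 3 (0.0774) and without a filter on low counts (0.0507), and with library totals it turned to 0.092 (adjusted p = 0.563).

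Rbbp7, a histone-binding subunit of several chromatin complexes, moved the other way and averaged 182.7 ± 17.8 CPM in CD43++ckit+ cells, 95.6 ± 9.53 CPM in CD43+ckit- cells and 58.5 ± 10.8 CPM in CD43-ckit- cells (SD, n = 3 each). It rose in CD43++ckit+ relative to CD43+ckit- (0.94, adjusted p = 0.00212) and to CD43-ckit- (1.64, adjusted p = 4.56e-05), and in CD43+ckit- relative to CD43-ckit- (0.71, adjusted p = 0.00612). Cenpa, which encodes the centromeric H3 variant and falls outside the symbol rule, had 129.0, 126.1 and 145.2 CPM in CD43++ckit+ cells, 185.1, 218.3 and 205.2 CPM in CD43+ckit- cells, and 75.0, 83.7 and 104.3 CPM in CD43-ckit- cells. CD43+ckit- was highest and CD43-ckit- lowest, without overlap. Cenpa fell in CD43++ckit+ relative to CD43+ckit- (-0.60, SE 0.14, adjusted p = 0.00964), rose in CD43++ckit+ relative to CD43-ckit- (0.61, SE 0.15, adjusted p = 0.00502) and rose in CD43+ckit- relative to CD43-ckit- (1.21, SE 0.15, adjusted p = 0.00031). The first call was lost with library totals (0.233) and without CD43+ckit- library 2 (0.0639), and the second with DESeq2 size factors (0.056).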

How the data were processed

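The authors deposited 1 table of raw gene counts, with a column for each of the 9 libraries. Per the submitters' processing notes, the software included HTSeq, RSEM, edgeR, TopHat2 2.0.4 and CASAVA 1.8, with no step assigned to each. Those notes name a human build although the symbols are those of mouse, and strand handling is not stated, so the annotation behind the counts is unclear. The test used edgeR 4.0.16 (R 4.3.3): filterByExpr (minimum count 10, minimum total count 15), TMM scaling, and 1 model with a mean per population, by estimateDisp, glmQLFit with robust estimation and glmQLFTest. The standard error was taken as the size of the log2 fold change over the square root of F. Stem-loops, hexamers and unique 50-base words came from GENCODE M21 transcripts, promoters from RefSeq. The procedure was checked on simulated data with a single fixed dispersion and no outlying library. That check does not cover libraries that stand apart, as some did here.

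The members and gene lists were chosen with earlier results of these data known. Named were all variants, called replication-dependent genes without overlap (the 8 largest changes per direction, average log2 CPM of at least 0), the 8 most counted members, and 4 genes per list that had the smallest adjusted p for CD43++ckit+ against CD43-ckit-, plus Cenpa. DESeq2 1.42.0, other scalings and filters, and leaving out libraries were tried as alternatives. In CD43+ckit- and CD43-ckit-, deviations of same-numbered libraries from their population means had correlations of 0.591, 0.419 and 0.385. All exceeded 0.1, the limit used for taking the numbers as possible pairs. The main fit still had no block, and fits with a replicate block were alternatives. Library 2 of CD43+ckit- also correlated at 0.425 with library 3 of CD43-ckit-, and library 3 of CD43+ckit- at 0.472 with library 2 of CD43-ckit-. The correlations therefore do not show which libraries pair.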

Additional observations from a re-analysis of the deposited data

How the results depend on the processing

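Among replication-dependent genes, library totals called 13 higher and 4 lower in CD43++ckit+ versus CD43-ckit-, and 14 higher and 3 lower in CD43+ckit- versus CD43-ckit-. A stricter filter (50 counts in 3 libraries) called 5 lower in CD43++ckit+ versus CD43-ckit- and 2 higher in CD43+ckit- versus CD43-ckit-, where DESeq2's Wald test also called 2 higher. Leaving out the least correlated library in each population, an alternative chosen after the data were seen, 8 were lower in CD43++ckit+ versus CD43+ckit- and 7 higher in CD43+ckit- versus CD43-ckit-. Among variants, library totals called 1 lower in CD43++ckit+ versus CD43+ckit-, 5 higher and 1 lower in CD43++ckit+ versus CD43-ckit-, and 1 lower in CD43+ckit- versus CD43-ckit-. Without a low-count filter 1 was lower in CD43++ckit+ versus CD43+ckit- and 3 in CD43+ckit- versus CD43-ckit-. The stricter filter called 1 higher in CD43++ckit+ versus CD43+ckit-. DESeq2 size factors, the Wald test and a fit of those populations alone each called 1 higher in CD43+ckit- versus CD43-ckit-. Without the least correlated libraries 5 were lower in CD43++ckit+ versus CD43+ckit-.

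Leaving out each library in turn, replication-dependent counts for CD43++ckit+ versus CD43+ckit- were 0 higher throughout and 4 to 7 lower, for CD43++ckit+ versus CD43-ckit- 0 to 1 higher and 5 to 11 lower, and for CD43+ckit- versus CD43-ckit- 2 to 6 higher and 3 to 7 lower. Variant counts were 1 to 2 higher and 1 to 3 lower, 2 to 4 higher and 4 to 5 lower, and 1 to 3 higher and 2 to 6 lower.

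With the replicate block over all 9 libraries 1 variant was higher in CD43++ckit+ versus CD43+ckit-, and 2 replication-dependent genes were higher in CD43+ckit- versus CD43-ckit-. With the block in fits of 2 populations alone, 1 variant was higher and 1 lower in CD43++ckit+ versus CD43+ckit-, and 11 replication-dependent genes were higher and 8 lower in CD43+ckit- versus CD43-ckit-. For pairs with CD43++ckit+ the numbers were not taken to pair libraries, since same-numbered library deviations correlated at 0.469, -0.658 and 0.328 with CD43+ckit- and at 0.304, -0.363 and 0.287 with CD43-ckit-.

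Directions that turned with library totals, in values called with one scaling or the other, were, for CD43++ckit+ versus CD43-ckit-, H2afj (0.10), H2afx (0.042), H3f3b (0.031), Hist2h2be (0.79) and Hist1h4i (0.66), and for CD43+ckit- versus CD43-ckit-, H2afj (0.24), H2afx (0.024) and Daxx (0.092). Values of named genes with no call under either scaling that also turned are given beside those genes. Against CD43+ckit-, H1fx in CD43++ckit+ ran from -5.15 to 1.13 when single libraries were left out, the lowest without CD43++ckit+ library 3, and was -5.48 without the least correlated libraries. Library totals moved the median of all genes, as given above, and the cause of the other changes was not tested. The median SE was 0.48 to 0.49 for replication-dependent genes, against 0.23 to 0.24 for all genes, and what sets it was not tested.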
